A study of Mus musculus with 12 samples.

Results

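The genes described here are 44 genes of the heat shock response and of the cytosolic and mitochondrial protein folding machinery, taken by symbol from a fixed list. Each library measured 20792 genes, and 41 of the 44 were among them. Hspa14, Hspb1 and Cryab were not analysed here. Hematopoietic stem and progenitor cells (HSPCs) of wild-type (WT) mice were sequenced in bulk in 4 groups of 3 libraries. They had been sorted from bone marrow by the absence of lineage markers and CD127 and the presence of c-kit and Sca-1. ND chow held 0.5% NaCl. HSD animals ate 8% NaCl chow and drank water containing 1% NaCl for 8 weeks, starting at 6 weeks of age. ND ICHD7 and HSD ICHD7 mice had the same diets for 8 weeks and then an intracerebral hemorrhage (ICH), made by injecting 25 µl of the animal's own blood into the brain. Their HSPCs were taken on day 7 after the injection, and in the study mice of both diets were put on normal chow after ICH. For ND and HSD each library pooled 3 animals, and for the ICHD7 groups the number is not given in the sources used here. P-values therefore measure the spread between these libraries.

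Chaperones bind unfolded or nascent proteins and help them reach their folded form. HSP70 proteins bind short unfolded stretches in cycles of ATP hydrolysis, which J proteins (the Dnaj genes) start and which nucleotide exchange factors such as HSP110 and the BAG proteins end. HSP90 completes the folding of kinases and steroid receptors together with cochaperones, and the ring-shaped TRiC complex folds actin and tubulin. The transcription factor HSF1 induces some of these genes within minutes of heat or of other stress that unfolds proteins, Hspa1a and Hspa1b most strongly, while others such as Hspa8 and Hsp90ab1 are made in large amounts by cells that are not stressed. In hematopoietic stem cells, where protein synthesis is slow and tightly set, chaperones and HSF1 are known to help keep the proteome in balance. Of the listed members, Hspa1a, Hspa1b, Dnajb1, Bag3, Hsph1 and Hsp90aa1 were taken here as inducible, Hsf1 and Hsf2 as factors, and the other 33 as constitutive. These are labels, and induction by stress was not measured in these cells.

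Levels are CPM, read counts scaled to library size, as the authors normalized them between libraries. Libraries held 8678304 to 27491973 reads in the listed genes. Kit and Cd34, which mark progenitors, lay at 329 to 487 and 215 to 392 CPM, whereas Ly6a, which encodes the sort marker Sca-1, lay at 2.42 to 6.72 CPM. The sum over macrophage marker genes (12 of 12 listed, none at 0) was highest in HSD replicate 2, with 862 CPM, and in ND replicate 1, with 491 CPM, and lay at 88.6 to 199 CPM elsewhere. ND ICHD7 replicate 2, HSD ICHD7 replicate 3 and HSD replicate 2 stood apart from the other libraries of their groups. On log2 values they correlated with these at 0.9855 to 0.9856, 0.9785 to 0.9787 and 0.9827 to 0.9855. The other pair of libraries of each group reached 0.9895, 0.9892 and 0.9916. Libraries without ICH had 1393 to 1755 genes at 0 and libraries after ICH had 2 to 29, so that ICH and any difference in how these libraries were made cannot be told apart. In bulk RNA, fewer cells that use a gene and less of its RNA per cell cannot be told apart either.

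HSF1 binds the heat shock element, inverted repeats of the 5 bases nGAAn. Its core was searched on both strands as GAANNTTC or TTCNNGAA, and as the longer GAANNTTCNNGAA or TTCNNGAANNTTC, in which overlapping cores share 3 bases. RefSeq promoter windows of GRCm38.p6, from 250 bases before to 50 bases after each start, were found for 35 of the 44 members. The core lay in 16 of these 35 genes (45.7%), against 17.0% of all 27025 genes with a window. The longer form lay in 5 of 35 (14.3%), namely Chordc1, Dnajb6, Hspd1, Hspe1 and Hsph1, against 0.662% of all genes. Windows of Hspd1 and Hspe1 overlap, so both genes were counted for the same stretch, for the core and for the longer form. A match describes letters in a window and not binding. The windows below are those of Hspa1a and Hspa1b, which varied most between libraries, of Hsph1, which fell the most on ND, and of Chordc1 and the divergent promoter shared by Hspd1 and Hspe1, as examples of the longer form. Cores are in capitals. Hspa1a (chr17:34972157-34972336) and Hspa1b (chr17:34959239-34959418), both on the minus strand, have nearly the same sequence in the 180 bases before their starts, differing at 1 base. The Hsph1 window (chr5:149636351-149636380, minus strand) and the Chordc1 window (chr9:18292261-18292287, plus strand) lie at the start of the gene. The printed Hsph1 stretch holds 1 of the 3 cores of its promoter window and not the longer form. The Hspe1 window (chr1:55088053-55088082, plus strand) lies between the start of Hspe1 and 1 start of Hspd1. A further Hspd1 window, whose start lies past that of Hspe1, held 0 cores.
Hspa1a: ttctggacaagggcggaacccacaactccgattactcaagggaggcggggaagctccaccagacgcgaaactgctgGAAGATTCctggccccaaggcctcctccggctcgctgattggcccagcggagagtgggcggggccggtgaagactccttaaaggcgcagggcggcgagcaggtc
Hspa1b: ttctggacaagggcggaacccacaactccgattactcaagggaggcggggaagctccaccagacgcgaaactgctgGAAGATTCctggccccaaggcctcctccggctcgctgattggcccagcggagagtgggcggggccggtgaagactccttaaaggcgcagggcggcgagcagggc
Hsph1: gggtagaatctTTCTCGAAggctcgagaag
Hspe1: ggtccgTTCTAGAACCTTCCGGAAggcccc
Chordc1: cgGAACGTTCGGGAAAATTCCTGAAgc

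In HSPCs of ND mice, constitutive chaperones made up most of the chaperone RNA. Per kb of exon, Hsp90ab1, the constitutive HSP90, stood at 754 ± 57.4 CPM per kb (SD, n = 3), Hspa8, the constitutive HSP70, at 551 ± 29.9 CPM per kb (SD, n = 3) and Hsp90aa1, the inducible HSP90, at 287 ± 30.8 CPM per kb (SD, n = 3). These lay apart by more than their spread. After them came the TRiC subunits Cct5 at 84.7 ± 5.03 and Cct2 at 77.5 ± 4.58 CPM per kb (SD, n = 3), which did not differ beyond their spread, and then a gradual descent to Dnajb2 at 1.92 ± 0.495 and Hsf2 at 1.55 ± 0.167 CPM per kb (SD, n = 3). Hsf1 itself stood at 5.16 ± 0.260 CPM per kb (SD, n = 3), near the lower end. The 41 members summed to 9672 to 10830 CPM in ND, 9286 to 11000 CPM in HSD, 7353 to 8448 CPM in ND ICHD7 and 8084 to 10750 CPM in HSD ICHD7. Hspa8, Hsp90ab1 and Hsp90aa1 took 54.5% to 57.7% of that sum in each library. The ND and ND ICHD7 sums did not overlap, and the HSD and HSD ICHD7 sums did.

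**Figure D1:**
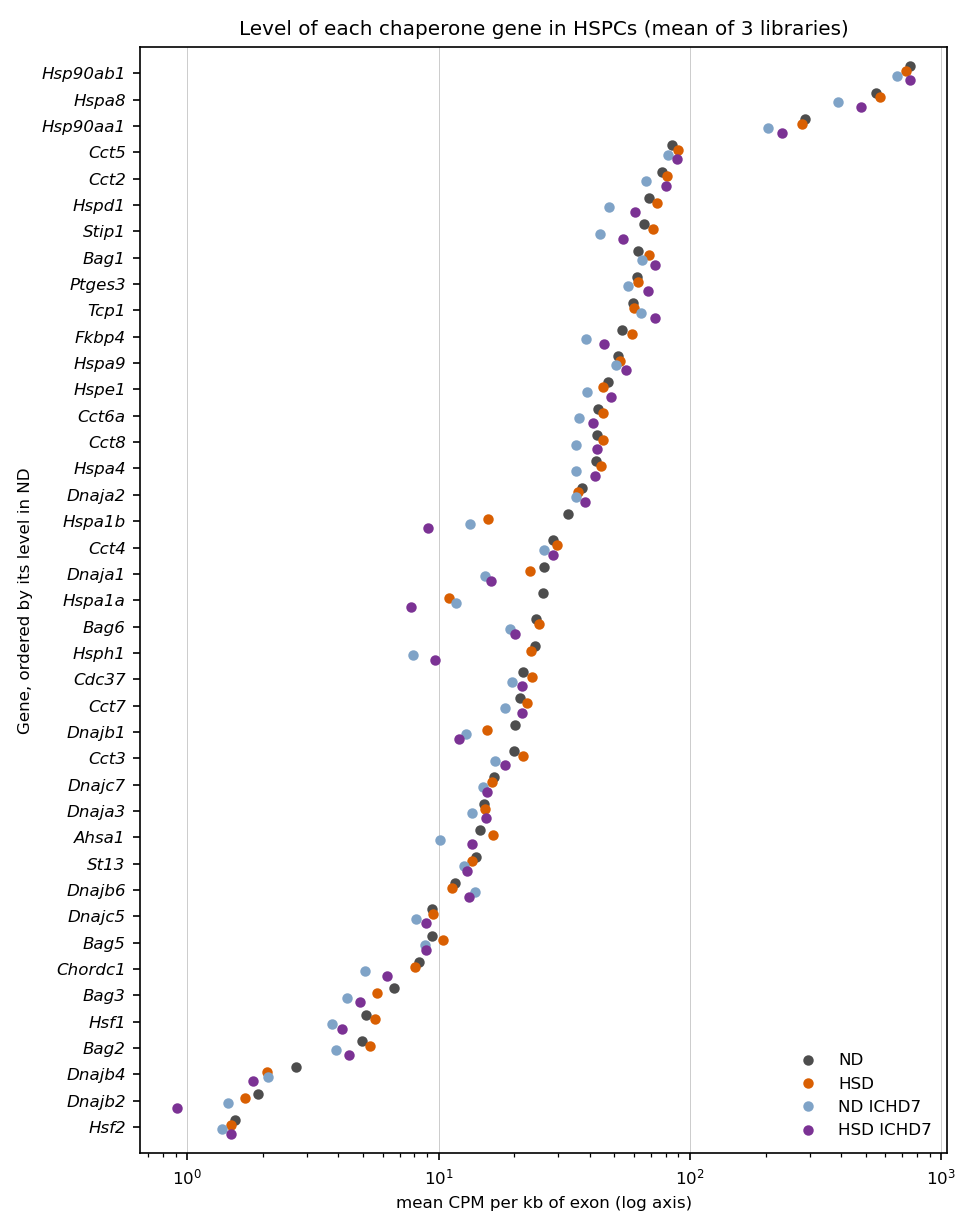
Mean CPM per kb of exon (log axis) of the 41 listed members in ND, HSD, ND ICHD7 and HSD ICHD7, each point the mean of 3 libraries, with genes ordered by their level in ND. Hsp90ab1, Hspa8 and Hsp90aa1 lie above the rest in each group, and the points of Hspa1a, Hspa1b and Hsph1 are spread widest between groups.

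Hspa1a and Hspa1b, the stress-inducible HSP70 genes, varied more between libraries of the same group than nearly all other genes. Hspa1b (ENSMUSG00000090877) measured 9.59, 72.5 and 193 CPM in ND replicates 1 to 3. In HSD it measured 94.2, 9.75 and 28.0 CPM. In ND ICHD7 it measured 8.41, 61.7 and 41.9 CPM, and in HSD ICHD7 31.3, 9.83 and 34.9 CPM. Each group thus held 1 library under 10 CPM and others several times higher, and the 4 groups overlapped. The highest ND library was 20.1 times the lowest, and this ratio was 9.66 in HSD, 7.34 in ND ICHD7 and 3.55 in HSD ICHD7. Hspa1a (ENSMUSG00000091971) followed it, at 8.82, 60.0 and 164 CPM in ND, 62.5, 10.1 and 25.8 CPM in HSD, 7.30, 58.0 and 39.3 CPM in ND ICHD7 and 30.1, 8.65 and 30.5 CPM in HSD ICHD7. The SD of log2 values within groups was 1.62 for Hspa1b and 1.54 for Hspa1a, larger than that of 99.99% and 99.97% of 20393 genes. Hsph1 (0.43) came next among the members, above 91.9% of genes, and the median of the 41 members was 0.15, against 0.22 for all genes. The most even members were Dnajc7 and Hsf1, at 0.07 and 0.08. Hspa1a and Hspa1b share 38.1% and 40.5% of the 150-base windows of their transcripts exactly, so reads may have been split between them, and the ratio of Hspa1b to Hspa1a stayed between 0.970 and 1.51 in the 12 libraries.

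**Figure D2:**
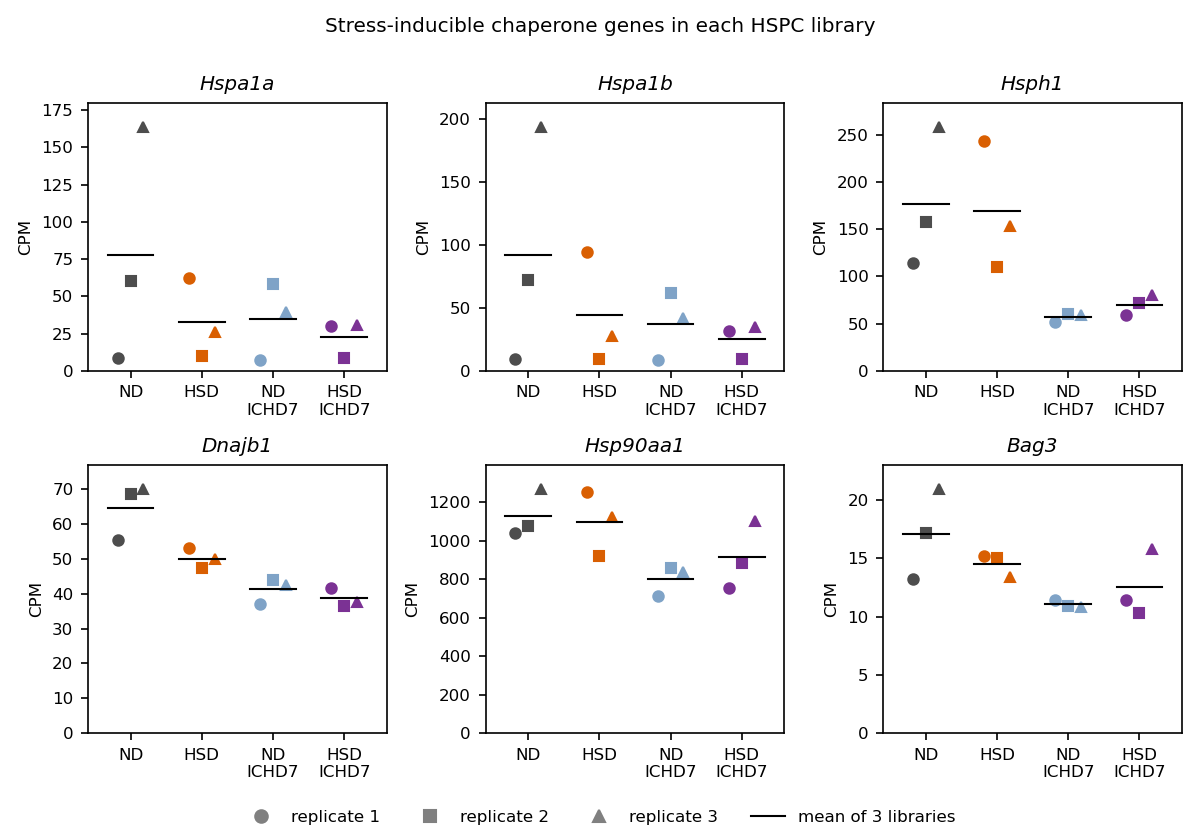
CPM of 6 stress-inducible members in each of the 12 libraries (linear axes from 0), with the replicate given by the symbol and the mean of 3 libraries by the line. Hspa1a and Hspa1b are spread within each group, while Hsph1 lies between 51.5 and 80.2 CPM in the 6 libraries after ICH, under all 6 without ICH, which begin at 110 CPM.

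Several other members followed Hspa1b from library to library. In ND, 13 of the other 39 members ranked the 3 libraries in the same order as Hspa1b, 33.3% against 16.6% of all genes. In HSD, 15 of 39 did (38.5% against 15.2% of genes), in ND ICHD7 17 of 39 (43.6% against 18.5%) and in HSD ICHD7 8 of 39 (20.5% against 16.6%). In both ND and HSD, 8 of 39 followed it (20.5%, against 3.55% of all genes). These were the factor Hsf1, Hsph1, Hsp90aa1, the J proteins Dnaja1 and Dnajb1, the adaptor Stip1, which joins HSP70 to HSP90, the HSP70 cochaperone St13, and the HSP90 cochaperone Chordc1. Only Dnaja1 did so in each of the 4 groups, against 0.132% of genes. Members of 1 library share its cells and handling, so these shares are a description and not a test. In ND, Dnaja1 measured 172, 224 and 283 CPM, and in HSD 239, 162 and 199 CPM, a much narrower range than that of Hspa1b. Hsf1 varied least of the 8, at 34.9, 36.4 and 38.6 CPM in ND and 41.7, 37.3 and 39.8 CPM in HSD.

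The lowest Hspa1b library of each group was ND replicate 1, HSD replicate 2, ND ICHD7 replicate 1 and HSD ICHD7 replicate 2. ND replicate 1 and HSD replicate 2 had the highest sums of macrophage markers. They also had the highest sums of erythroid markers, at 346 and 286 CPM, against 35.5 to 154 CPM elsewhere. After ICH the lowest Hspa1b libraries had macrophage sums of 198 CPM in ND ICHD7, the highest of that group, and 88.6 CPM in HSD ICHD7, the lowest of that group. Their erythroid sums were 124 CPM in ND ICHD7, the highest of that group, and 50.5 CPM in HSD ICHD7, the middle one. The sum of 25 listed immediate early genes, which are induced within minutes of a stimulus, was 1529 CPM in ND replicate 1, 1238 CPM in HSD replicate 2, 1356 CPM in ND ICHD7 replicate 1 and 848 CPM in HSD ICHD7 replicate 2. It was the lowest of the group in ND and HSD ICHD7, the middle one in HSD and the highest in ND ICHD7. The part of macrophages, of erythroid cells or of immediate early responses in the spread of Hspa1a and Hspa1b was not tested.

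**Figure D3:**
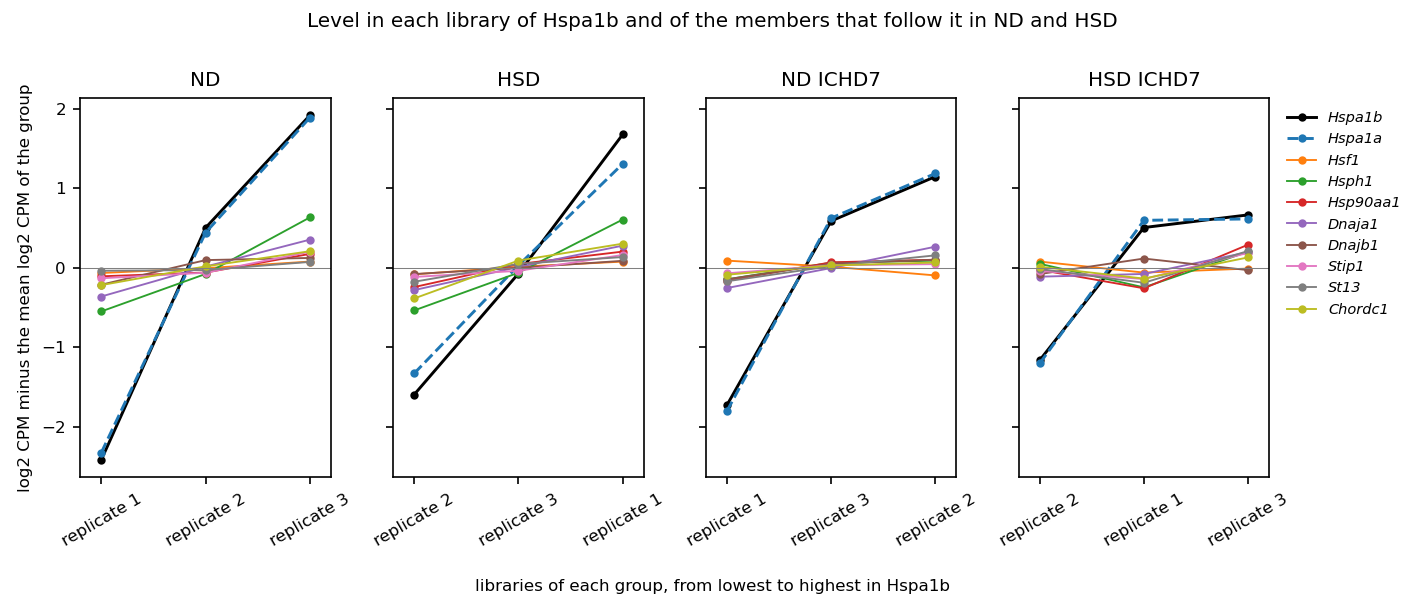
Log2 CPM minus the mean log2 CPM of the group, for Hspa1b, Hspa1a and the 8 members that ranked the libraries as Hspa1b did in both ND and HSD, with libraries on the x axis from lowest to highest in Hspa1b and 1 panel a group. The 8 were picked by their order in ND and HSD, so their lines rise there by that choice, and Hspa1a and Hspa1b are steepest. In ND ICHD7 all of the 8 but Hsf1 keep the order of Hspa1b, and in HSD ICHD7 only Dnaja1 does.

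The comparison of ND ICHD7 with ND asked how HSPCs on a normal diet differed 7 days after ICH. Chaperone genes were lower after ICH, with 14 of 41 members lower and 0 higher at an adjusted p under 0.05 by limma over 19387 genes. Among all genes 3.23% were called lower and 13.5% higher, and 5.91% of the 9696 genes above 10 CPM in at least 3 of these libraries were called lower. The median log2 fold change of the members was −0.26, against 0.01 for all genes tested and −0.08 for those above 10 CPM. At an unadjusted p under 0.05, 23 members were lower and 0 higher, where all genes gave 10.3% lower and 18.1% higher. Groups did not overlap for 25 of 41 members, each lower after ICH, where 14.3% of all genes and 24.4% of those above 10 CPM were lower without overlap. Sums of macrophage markers were 124 to 198 CPM after ICH and 140 to 491 CPM in ND, and those of 12 HSPC markers 1621 to 1638 CPM after ICH and 1690 to 1825 CPM in ND, without overlap. Of 24 immediate early genes tested 11 were also lower after ICH. A list of genes not used by blood cells summed to 132 to 143 CPM after ICH and 64.9 to 83.1 CPM without it. The part of these differences in the lower chaperone levels was not tested.

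Hsph1, the HSP110 that exchanges nucleotide on HSP70, fell the most. It measured 114, 158 and 258 CPM in the ND libraries and 51.5, 60.7 and 59.6 CPM in the ND ICHD7 libraries. The groups were far apart, with a mean 3.08 times lower after ICH and its log2 fold change was −1.54 (SE 0.23, adjusted p = 8.8e-04). Hspa1a and Hspa1b, in contrast, had log2 fold changes of −0.78 (SE 0.97) and −0.87 (SE 0.98) with overlapping groups and adjusted p = 0.652 and 0.616. Hspa8 fell from 2368 ± 129 to 1674 ± 185 CPM (SD, n = 3), and its log2 fold change was −0.50 (SE 0.14, adjusted p = 0.0360). This was the largest drop in CPM of any member. The mitochondrial HSP70 Hspa9 measured 207 to 244 CPM in ND and 200 to 237 CPM after ICH, and did not pass the test (log2 fold change −0.03, SE 0.09). The HSP110 gene Hspa4 was lower in each ND ICHD7 library than in each ND library, with an adjusted p of 0.0762.

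Hsf1 measured 34.9, 36.4 and 38.6 CPM in ND and 28.3, 24.9 and 26.9 CPM in ND ICHD7. It fell by 0.45 on the log2 scale (SE 0.09, adjusted p = 0.00573), while Hsf2, a second heat shock factor, overlapped (log2 fold change −0.17, SE 0.14). Hsp90aa1 fell from 1129 ± 121 to 804 ± 77.7 CPM (SD, n = 3; adjusted p = 0.0213), and its constitutive counterpart Hsp90ab1 overlapped between the groups, at 2066 to 2388 CPM in ND and 1803 to 2201 CPM after ICH. Of the mitochondrial chaperonin, Hspd1 (HSP60) fell from 181 ± 6.35 to 125 ± 13.4 CPM (SD, n = 3; adjusted p = 0.00175). Its cochaperonin Hspe1 (HSP10) was lower without overlap but at an adjusted p of 0.105. Exons of Hspd1 and Hspe1 overlap on opposite strands, and whether strand was used in counting is not given in the sources used here.

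Among the 9 J proteins, Dnaja1 and Dnajb1 fell. Dnajb1, the inducible partner of HSP70, measured 55.5, 68.8 and 70.1 CPM in ND and 37.1, 44.1 and 42.6 CPM in ND ICHD7. The groups did not overlap, and the log2 fold change was −0.64 (SE 0.11, adjusted p = 0.00204). Dnaja1, another partner, taken here as constitutive, fell from 226 ± 55.3 to 132 ± 23.8 CPM (SD, n = 3; log2 fold change −0.76, SE 0.18, adjusted p = 0.0142). The other 7 J proteins did not pass, with log2 fold changes from −0.36 for Dnajb4 to 0.21 for Dnajb6. Of the 5 BAG proteins, Bag3, an inducible gene that links HSP70 to autophagy, fell from 17.1 ± 3.86 to 11.0 ± 0.341 CPM (SD, n = 3; adjusted p = 0.0312). Bag6, which guards proteins bound for the membrane or for degradation, fell from 152 ± 5.32 to 120 ± 13.6 CPM (SD, n = 3; adjusted p = 0.0303).

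The cochaperones of HSP90 and HSP70 had 4 of 7 members called, the largest share of the 8 protein classes. The heat shock factors, HSP90 and the mitochondrial chaperonin followed closely, each with 1 of 2 called, so this ranking says little. Among all genes 3.23% were called lower, and 5.91% of those above 10 CPM. Of the 6 inducible members, which come from several classes, 4 were called. Chordc1 measured 53.6, 63.1 and 72.0 CPM in ND and 36.0, 40.0 and 39.0 CPM after ICH (log2 fold change −0.70, SE 0.11, adjusted p = 0.00114). Stip1 fell from 138 ± 17.3 to 92.6 ± 3.99 CPM (SD, n = 3; adjusted p = 0.00184). Ahsa1, which stimulates the ATPase of HSP90, fell from 64.1 ± 2.73 to 44.2 ± 3.49 CPM (SD, n = 3; adjusted p = 0.00135). Fkbp4, an immunophilin of steroid receptor complexes, fell from 150 ± 1.12 to 108 ± 13.0 CPM (SD, n = 3; adjusted p = 0.00468). Ptges3 (p23), Cdc37, which brings kinases to HSP90, and St13 overlapped between the groups. Of the 8 TRiC subunits, Cct8 passed, its log2 fold change being −0.28 (SE 0.08, adjusted p = 0.0468), and 7 of 8 had lower means after ICH. The subunits summed to 1356 to 1490 CPM in ND and 1226 to 1364 CPM in ND ICHD7, which overlapped. Exons of Cct8, Dnaja1 and Hspa8 overlap those of other genes (Usp16, Smu1 and small nucleolar RNA genes), so that some of their reads may belong to these.

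The number of members called depended on single libraries. It was 7 without ND ICHD7 replicate 1 or without ND ICHD7 replicate 3, and 9 without ND replicate 2 or 3. It was 11 without ND replicate 1 or ND ICHD7 replicate 2. Lower calls over all genes fell too, from 626 to 160 without ND ICHD7 replicate 1 and 83 without ND ICHD7 replicate 3. Without ND replicates 2 and 3 they were 204 and 256. Without ND replicate 1 and ND ICHD7 replicate 2 they were 440 and 210. These fits tested 17216 to 19271 genes. Hsph1, Hspd1, Dnajb1, Stip1, Ahsa1 and Chordc1 were called in each of 17 alternative settings, Dnaja1 in 14 and Hsf1 and Fkbp4 in 15. Of the 17, 2 were the same fit as leaving out ND replicate 1 or ND ICHD7 replicate 2 alone. Those fits are therefore counted again in these tallies. Hsp90aa1 was called in 11 of the 17, Bag3 in 10, Hspa8 in 9, Bag6 in 8 and Cct8 in 3. Bag6 and Cct8 were lost whichever library was left out, with adjusted p from 0.0829 to 0.105 and from 0.0708 to 0.169. When libraries were left out in turn, Hspa8 was called only without ND ICHD7 replicate 2, with adjusted p from 0.0455 to 0.155, and it was lost with the replicate number as a block. With genes restricted to CPM above 10 in at least 3 libraries, the filter that the study stated, 6 of 40 members were called, where 68 of 9696 genes were called lower.

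**Figure D4:**
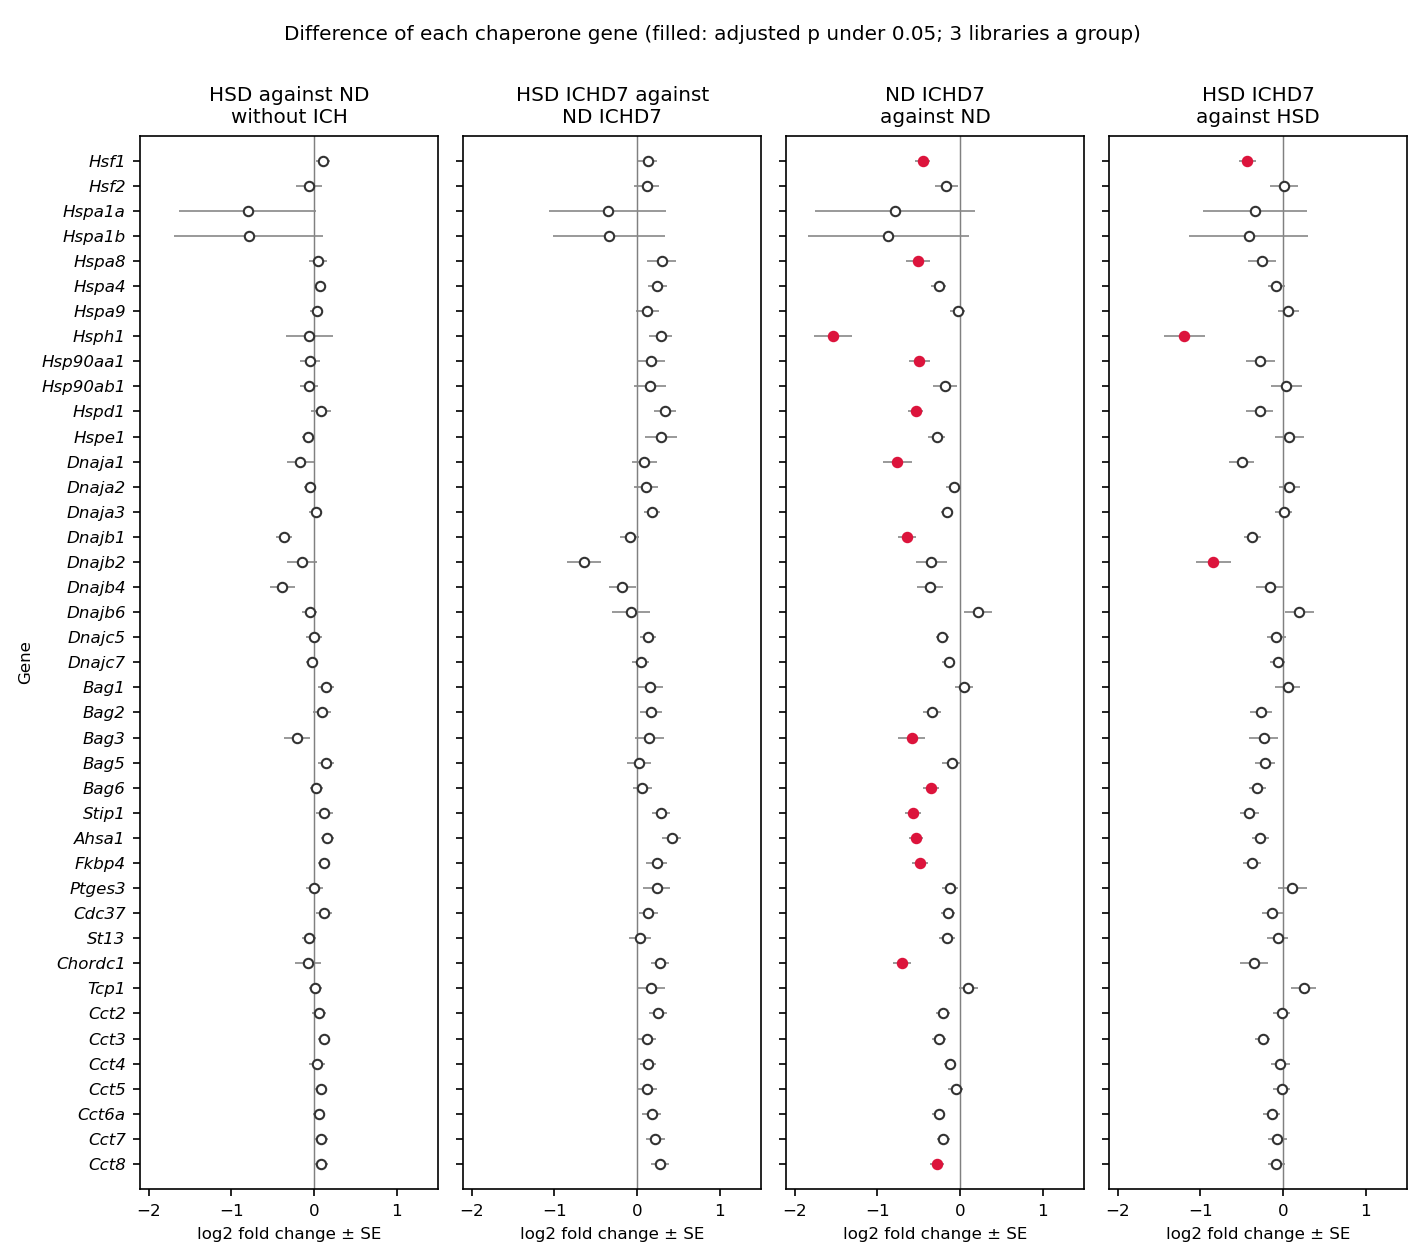
Log2 fold change ± SE of each of the 41 members in the 4 comparisons, 3 libraries a group, with filled points at an adjusted p under 0.05 by limma. There are 14 filled points for ND ICHD7 against ND and 3 for HSD ICHD7 against HSD, all to the left of 0, and none for the diets.

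The comparison of HSD ICHD7 with HSD set mice 7 days after ICH against mice without ICH, all fed high salt for 8 weeks. Mice were put on normal chow after ICH, so ICH and the end of high salt cannot be told apart here. Of 41 members 3 were lower and 0 higher at an adjusted p under 0.05 by limma, where 1.26% of 18082 genes were called lower and 5.31% higher, and 2.07% of those above 10 CPM were called lower. At an unadjusted p under 0.05, 10 members were lower and 0 higher, against 9.73% and 11.8% of all genes. The median log2 fold change was −0.14, against −0.01 for all genes and −0.04 for those above 10 CPM. Hsph1 measured 243, 110 and 153 CPM in HSD and 58.7, 72.1 and 80.2 CPM in HSD ICHD7. The groups did not overlap, and the mean was 2.40 times lower after ICH (log2 fold change −1.19, SE 0.25, adjusted p = 0.0217). Hsf1 measured 41.7, 37.3 and 39.8 CPM in HSD and 27.9, 30.8 and 28.9 CPM in HSD ICHD7, so that its log2 fold change was −0.43 (SE 0.10, adjusted p = 0.0371). Dnajb2, a J protein that carries ubiquitinated proteins to the proteasome, measured 7.54, 7.24 and 6.87 CPM in HSD and 4.03, 4.73 and 2.85 CPM in HSD ICHD7 (log2 fold change −0.84, SE 0.21, adjusted p = 0.0476).

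Of these 3 calls, those of Hsf1 and Dnajb2 were lost whichever library was left out, with adjusted p from 0.0666 to 0.184 and from 0.104 to 0.176. The count of members called was 0 without HSD replicate 1, HSD replicate 3, HSD ICHD7 replicate 1 or HSD ICHD7 replicate 2, 2 without HSD replicate 2 (Hsph1 and Dnaja1) and 3 without HSD ICHD7 replicate 3 (Hsph1, Dnaja1 and Stip1). In these fits, in that order, 37, 57, 35, 46, 78 and 142 of all genes were called lower, against 228 with all libraries. They tested 16641 to 18026 genes. The adjusted p of Hsph1 ranged from 0.0155 to 0.146 when each library was left out. In all, 11 members were lower without overlap, where 14.5% of all genes and 20.4% of those above 10 CPM were. Among them, Dnajb1, Dnaja1, Stip1, Fkbp4, Bag6, Bag2, Ahsa1 and Cct3 did not pass the test, with adjusted p from 0.0665 to 0.276. Hspa8 measured 2182 to 2707 CPM in HSD and 1806 to 2314 CPM in HSD ICHD7, and Hsp90aa1 920 to 1253 CPM and 753 to 1102 CPM, both with overlap. Sums of macrophage markers were 113 to 862 CPM in HSD and 88.6 to 199 CPM in HSD ICHD7, and genes not used by blood cells summed to 64.0 to 72.3 CPM and 79.7 to 117 CPM. HSPC markers summed to 1690 to 1862 CPM in HSD and 1016 to 1530 CPM in HSD ICHD7. Neutrophil markers (11 of 12 listed, none at 0) summed to 39.2 to 45.0 CPM in HSD and 75.1 to 87.0 CPM in HSD ICHD7, and T cell markers (2 of 6 listed) to 12.3 to 19.1 CPM and 5.74 to 9.08 CPM. Of these lists, the macrophage markers overlapped between the groups and the others did not. Their part in the chaperone values was not tested. Hspa1a and Hspa1b overlapped again, with log2 fold changes of −0.34 (SE 0.63) and −0.42 (SE 0.72).

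**Figure D5:**
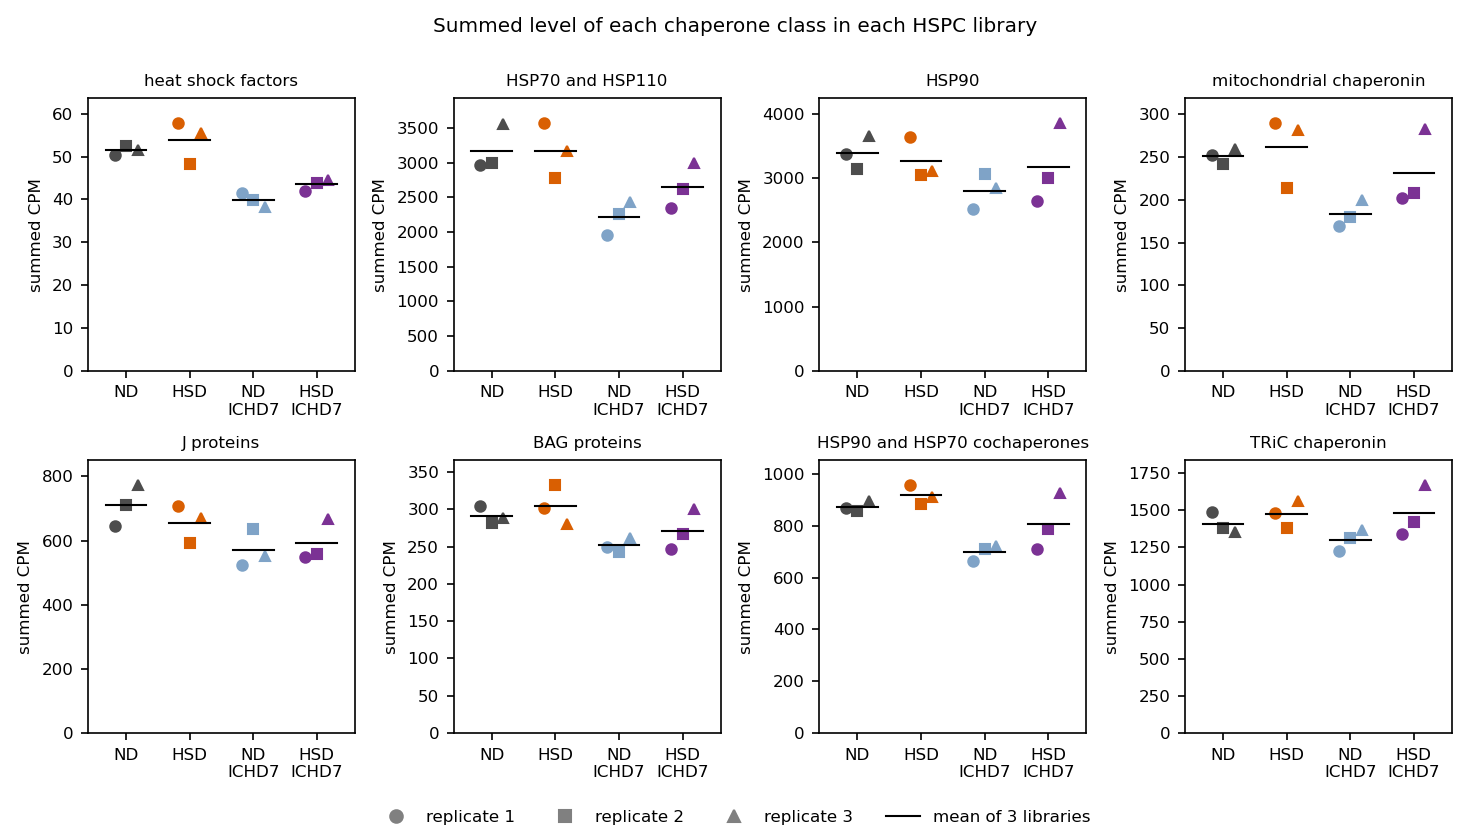
Summed CPM of the members of each chaperone class in each of the 12 libraries (linear axes from 0), with replicates by symbol and the mean of 3 libraries by the line. The HSP70 and HSP110 class lies at 2960 to 3551 CPM in ND and 1963 to 2426 CPM in ND ICHD7. The TRiC sums overlap between ND and ND ICHD7 and between HSD and HSD ICHD7. Those of HSD, at 1383 to 1561 CPM, lie above those of ND ICHD7, at 1226 to 1364 CPM.

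The comparison of HSD with ND asked whether the diet alone had changed chaperone RNA. No member was called (0 of 41 by limma, by edgeR's quasi-likelihood test and by DESeq2), where limma called 0.0774% of 16787 genes. Of these genes edgeR called 14 and DESeq2 called 65. At an unadjusted p under 0.05, 2 members were lower and 0 higher, where all genes gave 3.28% lower and 3.65% higher. The median log2 fold change was 0.02, the same as that of all genes. The 6 inducible members all had lower means in HSD, with log2 fold changes from −0.80 to −0.05, where 7619 of 16787 genes had lower means. Without ND replicate 3 the log2 fold changes of Hspa1a, Hspa1b and Hsph1 were 0.13, 0.16 and 0.26, and without HSD replicate 2 that of Hsp90aa1 was 0.08, so that 4 of the 6 directions turned with 1 library. The 8 TRiC subunits all had higher means, with log2 fold changes from 0.02 to 0.12, where this held for 9168 of all genes. The directions of Tcp1, Cct2 and Cct4 also turned when 1 library was left out. Groups did not overlap for 5 members that were higher in HSD (Bag2, Bag5, Ahsa1, Fkbp4 and Cct3) and for Dnajb1, which was lower, where 7.07% of all genes were higher and 5.75% lower without overlap.

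Dnajb1 came closest to a difference between diets. It measured 55.5, 68.8 and 70.1 CPM in ND and 53.12, 47.33 and 49.97 CPM in HSD, so that each HSD library lay under each ND library. The log2 fold change was −0.36 (SE 0.10, adjusted p = 0.383). Without both ND replicate 1 and HSD replicate 2, the libraries high in macrophage and erythroid markers, it was −0.43 (adjusted p = 0.0259). An unadjusted p under 0.05 was then reached by 8 higher and 5 lower members of 41. Of 16318 genes, 1084 higher and 718 lower reached it. Limma called 91 genes in that fit and 13 with all libraries. Dnajb4, a J protein of the cytosol, measured 19.5, 24.9 and 26.6 CPM in ND and 16.2, 15.6 and 22.7 CPM in HSD, which overlapped (log2 fold change −0.38, SE 0.16, adjusted p = 0.671). Hspa1a and Hspa1b had means 2.36 and 2.09 times lower in HSD, but log2 fold changes of −0.80 (SE 0.83) and −0.79 (SE 0.90) that lay within the spread of the libraries. The ND libraries also served in the comparison of ICH with no ICH on ND. Immediate early genes, which respond to handling as well as to signals, summed to 1177 to 1369 CPM in HSD and 1529 to 1789 CPM in ND, and their part in the level of Dnajb1 was not tested.

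After ICH, the comparison of HSD ICHD7 with ND ICHD7 asked whether the earlier diet still mattered. No member was called (0 of 41 by limma, by edgeR's quasi-likelihood test and by DESeq2), and limma called 0% of 20079 genes. Of these genes edgeR called 0 and DESeq2 called 98. At an unadjusted p under 0.05, 6 members were higher and 1 lower, against 5.42% and 10.2% of all genes and 9.52% and 4.1% of the 9664 genes above 10 CPM. Means were higher in HSD ICHD7 for 35 of 41 members, where this held for 45.8% of all genes and for 65% of the genes above 10 CPM. The median log2 fold change was 0.15, against −0.03 for all genes and 0.08 for those above 10 CPM. Without HSD ICHD7 replicate 3 the median was 0.06, and without both that library and ND ICHD7 replicate 2 it was 0.08. In the latter fit 3 members were higher at an unadjusted p under 0.05, against 920 of 18757 genes. Genes not used by blood cells summed to 132 to 143 CPM in ND ICHD7 and 79.7 to 117 CPM in HSD ICHD7, and immediate early genes to 1164 to 1356 CPM and 848 to 1233 CPM. HSPC markers summed to 1621 to 1638 CPM in ND ICHD7 and 1016 to 1530 CPM in HSD ICHD7, and T cell markers to 11.6 to 14.4 CPM and 5.74 to 9.08 CPM, each without overlap. Their part in the higher chaperone means was not tested.

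The 6 members with higher values were Ahsa1, Stip1, Chordc1, Hspd1, Cct2 and Cct8, and in each the groups did not overlap. In all, 12 members were higher and 1 lower without overlap, where 10% of all genes were higher and 13.3% lower, and 17.6% and 6.3% of those above 10 CPM. Ahsa1 measured 46.2, 40.2 and 46.2 CPM in ND ICHD7 and 55.3, 57.7 and 65.1 CPM in HSD ICHD7 (log2 fold change 0.42, SE 0.11, adjusted p = 0.246). It passed, at an adjusted p of 0.0418, only with all 12 libraries in 1 fit, where limma called 319 of 20079 genes. The other 5 had log2 fold changes from 0.25 for Cct2 to 0.34 for Hspd1, with adjusted p from 0.285 to 0.304. Dnajb2 went the other way, at 5.85, 6.63 and 6.09 CPM in ND ICHD7 and 4.03, 4.73 and 2.85 CPM in HSD ICHD7. Its groups did not overlap either, and the log2 fold change was −0.64 (SE 0.21, adjusted p = 0.263). Hspa1a and Hspa1b overlapped, with log2 fold changes of −0.35 (SE 0.70) and −0.34 (SE 0.68).

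Whether the diet difference changed with ICH was tested as an interaction over all 12 libraries. On HSD, ICH came with a return to normal chow, and the interaction cannot tell these apart. No member passed (0 of 41 by limma, by edgeR's quasi-likelihood test and by DESeq2), and limma called 0% of 20393 genes. At an unadjusted p under 0.05 there were also 0 members, where 8.35% of all genes passed. The interaction was above 0, that is, the log2 fold change with ICH was higher on HSD than on ND, for 38 of 41 members, against 45.7% of all genes and 58.7% of those above 10 CPM, with a median of 0.16 on the log2 scale against −0.03 for all genes and 0.04 for those above 10 CPM. Without ND ICHD7 replicate 2 and HSD ICHD7 replicate 3 it was above 0 for 31 members, with a median of 0.08. The smallest unadjusted p among the members were those of Ahsa1 (0.0692), Dnajb1 (0.0961) and Dnajb2 (0.102), with interactions of 0.26 (SE 0.13), 0.27 (SE 0.15) and −0.50 (SE 0.28). For Hsph1 it was 0.34 (SE 0.39), so the falls of Hsph1 after ICH on ND and on HSD were not shown to differ.

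A further list held 60 chaperone and cochaperone genes outside the 44, of which 59 were listed. With ICH on ND, 4 of 57 were called lower and 1 higher by limma. Among all genes 3.23% were called lower and 13.5% higher, and 5.91% of those above 10 CPM were called lower. Hspa4l, an HSP110 gene, fell from 73.7 ± 22.7 to 42.1 ± 6.08 CPM (SD, n = 3; log2 fold change −0.77, SE 0.19, adjusted p = 0.0186). Unc45a, a myosin chaperone, and Ppp5c, a phosphatase that binds HSP90, fell by 0.40 and 0.29 on the log2 scale (adjusted p = 0.0199 and 0.0221). Ahsa2, a relative of Ahsa1 that was named after its value was seen, fell by 0.40 (adjusted p = 0.0439). Hspa12a, a distant HSP70 relative, rose from 0.0212 ± 0.0366 to 1.22 ± 0.205 CPM (SD, n = 3), a gene near 0 in libraries without ICH like many others. In HSD it was listed at 0 in each library and above 0 in each HSD ICHD7 library. Of the 57 genes tested there it was the only 1 called, where 5.31% of all genes were called higher and 1.26% lower.

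Between diets that list gave 0 calls by limma. Without ICH, 0 of 56 genes lay at an unadjusted p under 0.05, where all genes gave 3.65% higher and 3.28% lower. After ICH, 4 of 59 were higher and 0 lower at that threshold. This compares with 5.42% and 10.2% of all genes, and 9.52% and 4.1% of those above 10 CPM. The 4 higher genes were Hspa2, Trap1, the mitochondrial HSP90, Dnajc9 and the prefoldin subunit Pfdn2. Hspa2, an HSP70 best known from testis, measured 12.2 ± 2.62 CPM in HSD ICHD7 and 7.95 ± 0.473 CPM in ND ICHD7 (SD, n = 3; adjusted p = 0.260).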

How the data were processed

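HSPC RNA was sequenced with a SMART-Seq Stranded Kit. The authors aligned reads to mm10, counted them with featureCounts and deposited CPM scaled by TMM in edgeR 3.24.3. Dividing by the CPM that 1 read is worth gave whole reads (tolerance 0.01). HSD replicate 2 was recovered less certainly. Members were found by symbol. Genes named are members, and up to 4 other chaperone genes of smallest p per comparison, with Ahsa2 added after its value was seen. Members and lists were chosen with earlier results of these data known. Groups were compared with limma 3.58.1 (R 4.3.3, trend) on log2(CPM + 0.5). Genes needed 10 reads or more in 3 or more of the libraries compared, and p-values were adjusted over all of these (Benjamini-Hochberg, threshold 0.05). Fold changes on this scale understate those of low genes. CPM per kb used exon lengths of GENCODE M21. Scripts were tested on simulated data. Alternatives were edgeR 4.0.16, DESeq2 1.42.0, other pseudocounts, filters and sets of libraries. Depth of 8678304 to 27491973 reads and 3 libraries per group limit precision.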

Additional observations from a re-analysis of the deposited data

How the results depend on the processing

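Of the 0, 0, 14, 3 and 0 members called (HSD against ND without ICH, HSD against ND after ICH, ICH on ND, ICH on HSD, interaction), the 14 became 6 and the 3 became 0 with genes above 10 CPM only. With that filter 116 of 9696 genes were called for ICH on ND and 44 of 9729 for ICH on HSD. The 3 became 1 with edgeR's quasi-likelihood test under TMM or RLE scaling, where 1064 and 1068 of 18082 genes were called. The 3 became 6 with all 12 libraries in 1 fit, where 2047 of 18082 genes were called. That fit also called 1 member between diets after ICH, among 319 of 20079 genes. Without both ND replicate 1 and HSD replicate 2, 1 member was called between diets without ICH, among 91 of 16318 genes. At an unadjusted p under 0.05, 13 of 41 members lay there, against 1802 of 16318 genes. For the interaction 2 members did, against 1103 of 20337 genes. Leaving out both ND ICHD7 replicate 2 and HSD ICHD7 replicate 3 was a choice made after seeing the data. It gave 3 members at an unadjusted p under 0.05 between diets after ICH, against 1932 of 18757 genes. For ICH on HSD it gave 17 members, against 2594 of 16641 genes. The cause was not tested.

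Libraries with the same replicate number were not paired by any label, and their deviations correlated from −0.191 to 0.0943. With the replicate number as a block, the 14 calls for ICH on ND became 12 and the 3 for ICH on HSD became 1. The other comparisons stayed at 0. Over all genes, 3245 calls for ICH on ND became 3304 and 1189 for ICH on HSD became 1081.

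When each library was left out, members called ranged over 0 to 0, 0 to 0, 7 to 11, 0 to 3 and 0 to 0 in the same order, and members at an unadjusted p under 0.05 over 1 to 7, 2 to 11, 20 to 24, 8 to 17 and 0 to 2. Over all genes, calls ranged over 8 to 22, 0 to 0, 264 to 2995, 56 to 671 and 0 to 0. Genes at an unadjusted p under 0.05 ranged over 624 to 1454, 1896 to 3866, 3100 to 5087, 2594 to 3343 and 1195 to 2591. No member reversed a called direction.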
